A study of Mus musculus with 21 samples.

Results

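The genes described here encode the subunits of voltage-gated sodium channels, voltage-gated calcium channels, HCN channels and the sodium leak channel. Members were matched by gene symbol. These were the *Scn* genes of sodium channel pores and beta subunits, and the calcium pore genes named *Cacna1*. The *Cacna2d*, *Cacnb* and *Cacng* genes, the *Hcn* genes and *Nalcn* were also taken. The symbols were chosen with earlier results of these data known, so counts of members beside shares of all genes are no test. They matched 44 of the 35266 genes in the count table, of which 41 are described, and all counts of members are over these 41. The sodium pore gene *Scn2a* is listed there under its older symbol *Scn2a1*, which the pattern does not match, so it is given beside the members and not counted among them.

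RNA-Seq was carried out on AGRP neurons and POMC neurons, which were picked by hand under fluorescence after enzymatic dissociation of the mouse hypothalamic arcuate nucleus. AGRP neurons came from NPY-hrGFP mice and POMC neurons from Pomc-GFP mice, all of them males on the C57BL/6J background and kept singly for the last 24 h, either with food (fed) or with water only (FD, food deprived). There were 5 AGRP fed, 6 AGRP FD, 5 POMC fed and 5 POMC FD libraries, each from 1 mouse. The mice were 46 to 56 days old, and 44 to 214 sorted cells went into a library.

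Fluorescence in these mice is driven by *Npy* and by *Pomc* regulatory sequence, so the AGRP cells were chosen by *Npy* and not by *Agrp*. Neuron type and mouse strain cannot be told apart in any AGRP against POMC comparison. The 5 mice of 46 or 47 days were all AGRP mice. The labels held in the neuropeptide genes: *Agrp* averaged 3456 ± 1154 TPM (read counts scaled by gene length and to a fixed total, mean ± SD) in AGRP fed and 15.5 ± 13.3 TPM in POMC fed libraries, and *Pomc* averaged 43.5 ± 24.6 and 16029 ± 4652 TPM. Library depth was 9822298 to 37663979 counts on genes (median 19189780). Of 26 marker genes of glial, vascular and ependymal cells, 17 averaged under 1 TPM and *C1qa* of microglia was at 0 in all 21 libraries. The summed level of all 26 was 22.6 to 120 TPM per library. Its median was 76.0 TPM in AGRP fed, 86.6 TPM in AGRP FD, 97.9 TPM in POMC fed and 66.8 TPM in POMC FD. Without *Vim* the sum was 11.7 to 45.4 TPM, with medians of 31.2, 25.2, 25.0 and 28.0 TPM in the same order.

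Sodium and calcium channels are built around 1 large pore-forming (alpha) subunit that senses voltage. Sodium pores carry the rising phase of the action potential, and beta subunits set their gating and surface density. Among calcium pores, the P/Q-, N- and R-type trigger transmitter release, the L-type open on strong depolarization and couple to gene expression, and the T-type open near rest and favor burst firing. Alpha2delta and beta subunits carry calcium pores to the membrane, most *Cacng* genes encode TARPs that traffic AMPA receptors, HCN channels pass a cation current that opens on hyperpolarization, and NALCN passes a background sodium current that depolarizes the resting cell.

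Most members were detected in these neurons. A gene counted as expressed in a group when its mean exceeded 5 TPM, and 32 members met this in AGRP fed, 30 in AGRP FD, 32 in POMC fed and 32 in POMC FD libraries. There were 29 members over 5 TPM in all 4 groups and 33 in at least 1. The 8 others were *Scn4a*, *Scn10a*, *Scn11a*, *Scn4b*, *Cacna1f*, *Cacna2d4*, *Cacng1* and *Cacng6*. *Scn4a* had no count in any library. A count of 0 allows up to 3 counts, which is 0.0797 to 0.305 CPM (counts scaled by library total) depending on the library, and this limit covers counting error only.

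Among the sodium pore genes described, *Scn9a*, *Scn3a* and the non-member *Scn2a1* had the highest means in the AGRP groups, and *Scn9a* and *Scn2a1* in the POMC groups. On the TPM scale, which corrects for gene length, *Scn9a* stood at 220.2 ± 36.8 in AGRP fed, 112 ± 15.1 in AGRP FD, 179.9 ± 40.9 in POMC fed and 191 ± 19.8 in POMC FD. *Scn3a*, a pore gene best known from the embryonic brain, stood at 132 ± 18.3, 127 ± 24.1, 50.7 ± 22.7 and 58.1 ± 9.71 TPM in the same order. *Scn2a1* stood at 187 ± 21.5, 145 ± 29.9, 157 ± 34.8 and 188 ± 17.4 TPM. The order of these genes was not tested. *Scn1a* ran from 19.2 ± 3.83 TPM in AGRP FD to 63.9 ± 12.7 TPM in POMC FD, and *Scn8a* from 14.7 ± 6.56 TPM in AGRP FD to 30.4 ± 3.79 TPM in POMC FD. *Scn7a*, which encodes the sodium-sensing channel that voltage does not open, ran from 6.86 ± 2.34 TPM in AGRP fed to 45.6 ± 3.12 TPM in POMC FD. Of the 3 sodium beta genes described, *Scn3b* was the highest in AGRP fed libraries at 145 ± 33.7 TPM and *Scn2b* in POMC fed libraries at 106 ± 22.3 TPM.

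Among calcium pores, the R-type gene *Cacna1e* (144 ± 45.5 to 200.4 ± 20.2 TPM across the 4 group means) and the N-type gene *Cacna1b* (137 ± 20.2 to 156 ± 15.9 TPM) had the highest means, and their order was not tested. The P/Q-type gene *Cacna1a* followed at 46.2 ± 15.2 to 55.6 ± 21.4 TPM. The L-type signal came mainly from *Cacna1d* and *Cacna1c*, and the T-type signal from *Cacna1h*, at 18.7 ± 7.90 to 33.0 ± 11.6 TPM. *Cacna2d2* was the highest alpha2delta gene in AGRP fed libraries at 188 ± 17.3 TPM, while *Cacna2d1* was the highest in POMC FD libraries at 247 ± 27.6 TPM. All 4 beta genes were expressed, with *Cacnb2* the highest in each group, from 66.9 ± 5.65 TPM in POMC FD to 102 ± 18.6 TPM in AGRP fed. *Cacng4* and *Cacng5* led the TARP family except in AGRP FD libraries, where *Cacng7* (51.4 ± 14.4 TPM) stood above *Cacng5* (43.2 ± 19.2 TPM), and the HCN gene *Hcn3* ranged from 11.3 ± 4.22 TPM in AGRP FD to 32.7 ± 10.7 TPM in POMC FD. *Nalcn* ranged from 77.4 ± 17.1 TPM in AGRP FD to 148 ± 14.6 TPM in POMC FD.

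**Figure D1:**
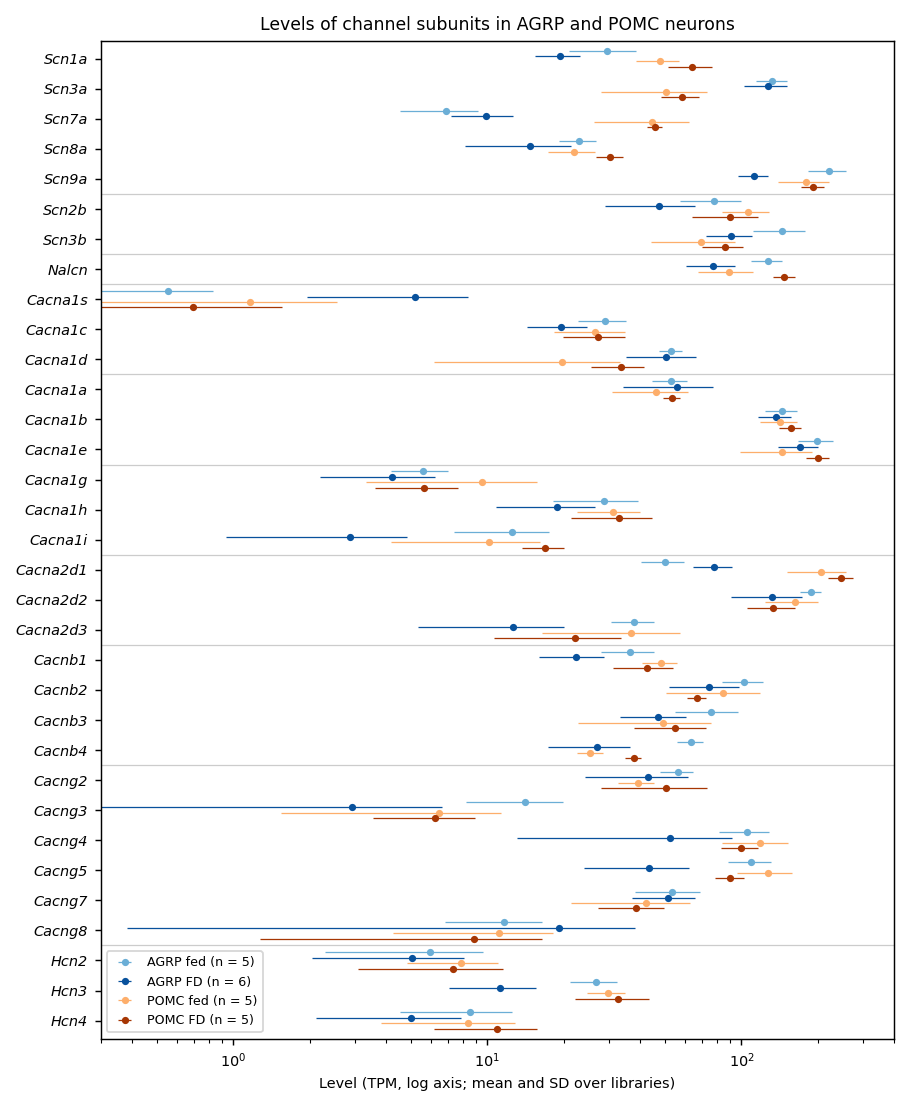
Level of the 33 members over 5 TPM in at least 1 group. Points are group means in TPM on a log axis and lines are SD over 5 or 6 libraries, with lines that reach the axis limit running off it; *Scn9a*, *Cacna1e*, *Cacna1b* and *Cacna2d2* exceed 100 TPM in all groups, and *Cacna1s* exceeds 5 TPM only in the AGRP FD mean.

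Food deprivation changed 11 of the 37 members tested in AGRP neurons, 2 upward and 9 downward. The comparison asks how the channel make-up of AGRP neurons responds to an energy deficit. The 2 members that rose were the alpha2delta gene *Cacna2d1* and the L-type pore gene *Cacna1s*. Those that fell were the sodium pore gene *Scn9a*, the leak channel gene *Nalcn*, the T-type pore gene *Cacna1i*, the alpha2delta gene *Cacna2d3*, the beta gene *Cacnb4*, the TARP genes *Cacng3*, *Cacng4* and *Cacng5*, and the HCN gene *Hcn3*. A gene was called at an adjusted p (q) under 0.05 by edgeR's quasi-likelihood test over all 16513 genes, and 10.5% of these were called (6.00% higher and 4.50% lower) against 29.7% of the members. Among the 8205 genes with a mean over 20 CPM in a group, 17.6% were called. The median log2 fold change was -0.38 over the 37 members and -0.02 over all genes, and 25 members had a negative value. All values are relative to the total RNA of the library, and in these pools fewer expressing cells and less RNA per cell cannot be told apart.

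**Figure D2:**
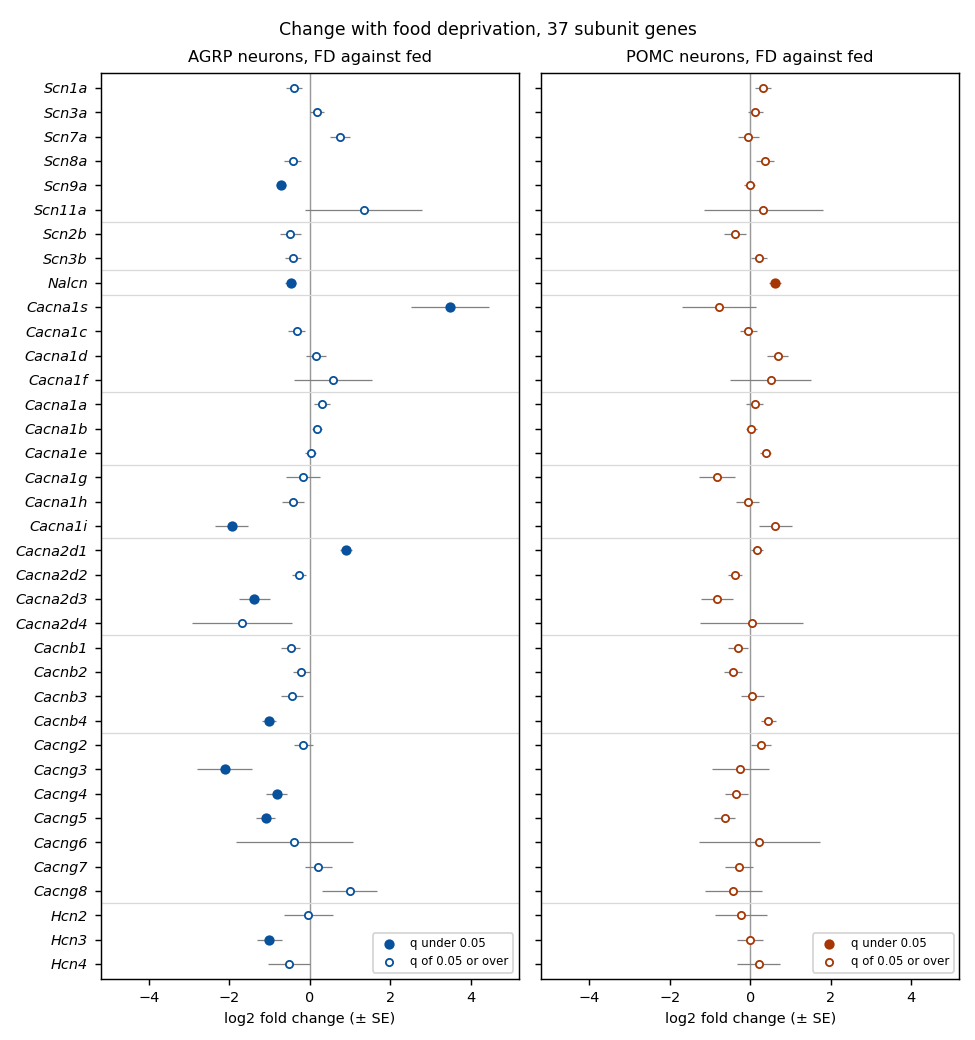
Log2 fold change (± SE) of FD against fed for the 37 members tested, in AGRP neurons on the left and POMC neurons on the right; filled points have q under 0.05. In AGRP neurons 11 points are filled, 9 of them left of 0, and in POMC neurons *Nalcn* alone is filled, right of 0.

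*Scn9a*, the sodium pore member with the highest mean in AGRP fed libraries, fell in AGRP neurons. This gene (ENSMUSG00000075316, mm10 chr2:66480080-66634952, minus strand) encodes a channel known for amplifying slow subthreshold depolarizations. Its normalized CPM was 523, 574, 616, 695 and 725 in the fed libraries and 324, 370.0, 371, 376, 416 and 421 in the FD libraries. Every FD library was below every fed library. The log2 fold change was -0.72 ± 0.12 (SE, q = 0.000116). No other of the 8 sodium pore and beta genes tested passed: these 8 had a median log2 fold change of -0.40, and *Scn2a1* had -0.13 ± 0.13 (q = 0.61). *Scn7a* (0.75 ± 0.25, q = 0.053) lay just outside the threshold. *Scn9a* supplied 53.2 ± 4.70% of the TPM summed over the 8 sodium pore members in fed and 39.6 ± 3.05% in FD libraries, and *Scn3a* 32.1 ± 2.82% and 44.5 ± 5.76%.

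*Nalcn* (ENSMUSG00000000197, chr14:123276641-123627144, minus strand) fell in AGRP neurons and rose in POMC neurons. In AGRP fed libraries its normalized CPM was 232, 236, 242, 264 and 310.0, and in AGRP FD libraries 146, 161, 181, 188, 211 and 218. In POMC fed libraries it was 164, 178, 204, 212 and 258, and in POMC FD libraries 283, 289, 309, 329 and 356. Fed and FD libraries did not overlap in either neuron type. The log2 fold change was -0.48 ± 0.14 (q = 0.026) in AGRP and 0.62 ± 0.15 (q = 0.049) in POMC neurons, and the difference between the 2 changes was -1.10 ± 0.21 (q = 0.00074). The difference kept its call without any single library. The AGRP change lost its call in 4 of 11 such fits (AGRP fed 4 or 5 or AGRP FD 4 or 5 left out, q up to 0.11) and the POMC change in 9 of 10, all but the fit without POMC fed 5, with q up to 0.14. Without a count filter q was 0.051 in AGRP and 0.064 in POMC neurons, and the POMC change also missed the threshold with sorted cells as a covariate (q = 0.056) and with the 2 POMC groups alone (q = 0.084). Scaling by spike-in RNA turned the POMC change to -0.59 ± 0.85 (q = 0.60). That scaling used spike-in counts per µl added, which follows RNA per pool and not per cell. The amount added was not balanced: 2 POMC FD libraries and 0 POMC fed libraries had 10 µl.

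*Nalcn* was the only member called in POMC neurons, 2.70% of the 37 tested against 0.460% of all genes (0.218% higher and 0.242% lower). At an unadjusted p under 0.05 there were 7 members. The members' median log2 fold change was 0.03, beside -0.02 over all genes. *Cacnb4* was also higher in every POMC FD library (87.9, 90.4, 102, 102 and 107 normalized CPM) than in any POMC fed library (68.7, 69.5, 71.4, 72.7 and 75.5), but its change of 0.45 ± 0.18 did not pass (q = 0.28). Groups did not overlap upward for 2 members and downward for 0, against 1.08% and 1.27% of all genes.

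The calcium pores that trigger transmitter release did not pass the test in either neuron type. *Cacna1a*, *Cacna1b* and *Cacna1e* had log2 fold changes of 0.30 ± 0.20, 0.17 ± 0.13 and 0.02 ± 0.13 in AGRP neurons, with q from 0.42 to 0.96. In POMC neurons they were 0.11 ± 0.21, 0.03 ± 0.13 and 0.39 ± 0.14, with q from 0.20 to 0.97.

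The T-type gene *Cacna1i* (ENSMUSG00000022416, chr15:80287238-80398279, plus strand) fell in AGRP neurons. Its normalized CPM was 22.1, 25.5, 26.3, 45.7 and 55.0 in fed and 2.46, 6.53, 7.05, 7.25, 13.1 and 18.3 in FD libraries, without overlap. The log2 fold change was -1.94 ± 0.40 (q = 0.0013). In POMC neurons the libraries spread from 9.19 to 51.0 fed and from 37.3 to 58.5 FD, a change of 0.63 ± 0.41 (q = 0.59). The AGRP change differed from the POMC change by -2.57 ± 0.58 (q = 0.0049). The other T-type genes did not pass in AGRP neurons, and *Cacna1i* supplied 26.6 ± 7.85% of the T-type TPM in fed and 10.5 ± 4.92% in FD libraries.

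*Cacna1s* (ENSMUSG00000026407, chr1:136052750-136119822), the L-type pore of skeletal muscle, rose from a low level in AGRP neurons. Normalized CPM was 0.412, 0.661, 0.996, 1.34 and 1.66 in fed and 1.64, 6.57, 8.73, 13.0, 17.3 and 21.01 in FD libraries. One FD library lay within the fed range and 5 lay above it. The fed libraries held 9 to 31 counts and the FD libraries 22 to 415. The log2 fold change was 3.48 ± 0.98 (q = 0.018), and q was 0.051 without AGRP fed 1. It differed from the POMC change by 4.26 ± 1.32 (q = 0.044), a call kept in only 7 of 21 fits that left out 1 library (AGRP fed 5, AGRP FD 1 or 6, POMC fed 1 or 5, or POMC FD 1 or 3), with q up to 0.13 in the others. With limma-voom q for this difference was 0.053, and with a term for the spike-in set 0.064. Antisense gene Gm37759 shares 19.98% of the annotated exon bases of *Cacna1s*, and reads were counted without strand, so the 2 genes cannot be told apart there. The common L-type genes *Cacna1c* and *Cacna1d* were not called.

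The 2 alpha2delta genes that were called moved in opposite directions. *Cacna2d1* (ENSMUSG00000040118, chr5:15934691-16374511, plus strand), the gabapentin-binding subunit, had 82.7, 96.7, 106, 114 and 132 normalized CPM in AGRP fed and 157, 167, 177, 223, 228 and 240.4 in AGRP FD libraries. Every FD library was above every fed library, and the log2 fold change was 0.90 ± 0.15 (q = 9.8e-05). In POMC neurons the fed libraries ran from 416 to 634 and the FD libraries from 497 to 637, a change of 0.17 ± 0.15 (q = 0.73). The 2 changes differed by 0.73 ± 0.22 (q = 0.033), and this call was lost without AGRP fed 2, 4 or 5, AGRP FD 4, 5 or 6, POMC fed 3, or POMC FD 2, 3 or 4 (q up to 0.075). *Cacna2d3* (ENSMUSG00000021991, chr14:28904943-29721864) had 31.4, 31.4, 43.5, 44.8 and 48.9 in AGRP fed and 6.08, 10.8, 11.1, 15.0, 19.9 and 29.1 in AGRP FD libraries, also without overlap. Its change was -1.38 ± 0.38 (q = 0.016). In share of alpha2delta TPM, *Cacna2d1* stood at 17.8 ± 2.39% in fed and 36.1 ± 9.77% in FD AGRP libraries, and *Cacna2d3* at 13.7 ± 2.42% and 5.41 ± 2.63%.

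*Cacnb4* (ENSMUSG00000017412, chr2:52428320-52676831, minus strand), a beta subunit, fell in AGRP neurons. Fed libraries had 131, 153, 161, 162 and 177 normalized CPM and FD libraries 54.5, 62.1, 71.6, 81.5, 84.2 and 112. The groups did not overlap, and the log2 fold change was -1.01 ± 0.17 (q = 0.00011). The AGRP FD values covered the range of the POMC fed libraries given above. The change differed from that in POMC neurons by -1.47 ± 0.25 (q = 0.00022). Antisense gene A430018G15Rik shares 16.0% of its exon bases. The other 3 beta genes, *Cacnb1*, *Cacnb2* and *Cacnb3*, were not called.

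Of 7 *Cacng* genes tested, 3 fell in AGRP neurons and 0 rose. *Cacng5* (ENSMUSG00000040373, chr11:107874605-107915055) had 91.6, 114, 120.4, 123 and 146 normalized CPM in fed and 19.0, 48.9, 50.1, 64.5, 67.4 and 82.9 in FD libraries, without overlap. Its change was -1.10 ± 0.24 (q = 0.0024). *Cacng4* had 73.2 to 131 in fed and 32.0, 32.3, 41.0, 53.2, 63.5 and 134 in FD libraries, so that 1 FD library (AGRP FD 1) was above all fed libraries. Its change of -0.82 ± 0.26 had a q of 0.041. *Cacng3* had 4.70 to 18.2 in fed and 0.405, 1.21, 1.31, 1.86, 2.13 and 8.59 in FD libraries, with AGRP FD 1 again the highest. Its change was -2.12 ± 0.69 (q = 0.045). For both *Cacng4* and *Cacng3*, 9 of 11 fits that left out 1 library ended the call, those leaving out each of AGRP FD 2 to 6 and 4 of the fed libraries (AGRP fed 2 to 5 for *Cacng4* and AGRP fed 1, 2, 3 and 5 for *Cacng3*), with q up to 0.12 for each. Adding sorted cells as a covariate also ended both calls (q = 0.065 for *Cacng4* and 0.079 for *Cacng3*), as did the 2 AGRP groups alone for *Cacng4* (q = 0.090), and no count filter (q = 0.060) or a term for age cohort for *Cacng3*. *Cacng4* and *Cacng5* lie on chromosome 11.

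The HCN gene *Hcn3* fell in AGRP neurons, while *Hcn2* and *Hcn4* were not called. *Hcn3* (ENSMUSG00000028051, chr3:89146074-89160196) had 20.5, 26.3, 34.0, 35.6 and 36.7 normalized CPM in fed and 8.11, 9.32, 12.9, 19.1, 20.3 and 21.9 in FD libraries, where 1 fed library lay within the FD range. Its change was -1.0 ± 0.31 (q = 0.031), and the call was lost without AGRP fed 2, 4 or 5 or AGRP FD 1, 2 or 5 (q up to 0.080), with limma-voom (q = 0.056) and with the 2 AGRP groups alone. Antisense gene *Pklr* shares 17.1% of its exon bases.

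**Figure D3:**
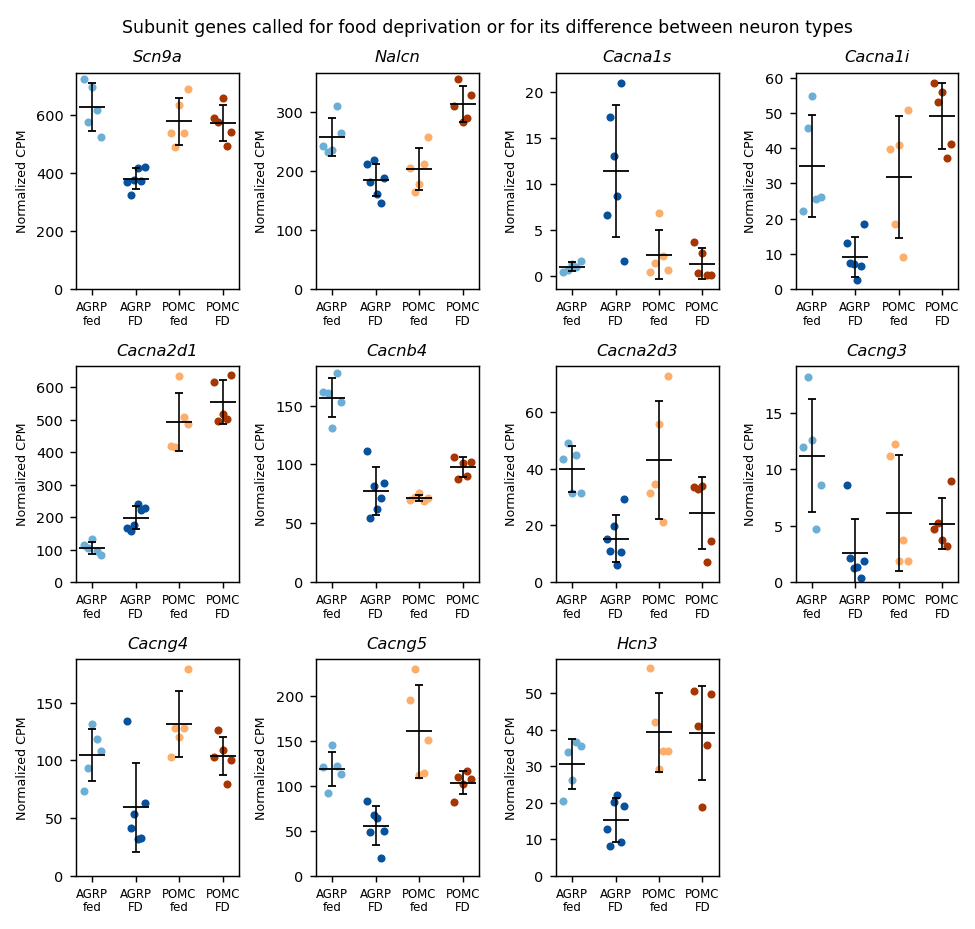
Normalized CPM of the 11 members called for food deprivation in AGRP neurons, which include the 6 called for the difference between neuron types, 1 point per library, with bars for the mean and SD of each group. AGRP FD libraries lie apart from AGRP fed libraries for *Scn9a*, *Nalcn*, *Cacna1i*, *Cacna2d1*, *Cacnb4*, *Cacna2d3* and *Cacng5*, and *Nalcn* is higher in FD than in fed POMC libraries.

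By the study's stricter criteria, which add a log2 change above 1 and a level above 20 CPM, 5 members passed in AGRP neurons, against 4.49% of all genes. The counts were 0 in POMC neurons (0.309% of all genes), 5 between neuron types in fed mice (4.01%), 6 in FD mice (8.14%) and 3 for the difference in response (4.61%). The level was met by 28 of the 37 members tested but by only 8205 of the 16513 genes. The shares of all genes are therefore an unlike base for the members, and shares among genes over 20 CPM were not computed for these criteria.

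Over the 37 members tested in AGRP neurons, fed and FD libraries did not overlap for 1 that rose and 6 that fell, beside 4.08% and 3.57% of all genes. All of these were among the 11 members called, and the calls and the ranges come from the same libraries. All 11 kept their direction within each batch that could be compared. These were the mice of 46 to 47 days (2 fed, 3 FD) and those of 51 to 56 days (3 fed, 3 FD). The 3 sets by amount of spike-in RNA were also compared, of which 1 held the same libraries as the younger mice and 1 a single library per group. Each batch is part of the libraries that gave the calls, so this agreement is no separate support. Within the older mice the differences in mean log2 CPM were -0.72 for *Scn9a*, -0.53 for *Nalcn*, -2.40 for *Cacna1i*, 0.97 for *Cacna2d1* and -1.06 for *Cacnb4*. Within the younger mice they were -0.67, -0.50, -1.51, 0.90 and -1.05. In POMC neurons the set with 1 µl of spike-in (3 fed, 3 FD) gave 0.56 for *Nalcn*. Beside these changes, 2 of 4 neuronal markers rose, *Snap25* by 1.06 ± 0.14 and *Tubb3* by 0.74 ± 0.19 (q = 0.0091). *Syt1* (-0.44 ± 0.25) and *Rbfox3* (-0.33 ± 0.26) were not called, and the median of the 4 was 0.21. The astrocyte gene *Aldh1l1* rose by 5.91 ± 1.81 (q = 0.030), from 0.0258 ± 0.0236 to 1.69 ± 1.91 TPM. It was the only one of 16 tested markers of other cell types that was called, and the part of these genes in the channel results was not tested.

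The members called both in AGRP neurons and for the difference between neuron types are shown with their upstream sequence where the RefSeq table (GRCm38.p6) holds a start whose 250 preceding bases contain no annotated exon. *Cacnb4* is left out because its window free of exons lies at a start inside the gene. The *Cacna1s* window holds exon bases. Capitals mark a core cAMP response element (TGACG, the core of TGACGTCA) or a GC box (GGGCGG), on either strand, where GC boxes can overlap each other.
Cacna2d1, chr5:15934441-15934690, plus strand: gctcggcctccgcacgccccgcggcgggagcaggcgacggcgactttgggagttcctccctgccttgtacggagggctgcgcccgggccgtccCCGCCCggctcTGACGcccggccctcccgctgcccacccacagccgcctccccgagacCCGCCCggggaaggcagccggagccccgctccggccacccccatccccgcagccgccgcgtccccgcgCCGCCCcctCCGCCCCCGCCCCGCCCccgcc
Cacna1i, chr15:80286988-80287237, plus strand: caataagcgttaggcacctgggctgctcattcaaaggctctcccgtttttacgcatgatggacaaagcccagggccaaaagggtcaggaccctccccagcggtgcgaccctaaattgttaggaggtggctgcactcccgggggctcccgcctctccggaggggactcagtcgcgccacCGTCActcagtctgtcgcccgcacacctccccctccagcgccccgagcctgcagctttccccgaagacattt
Nalcn, chr14:123627145-123627394, minus strand: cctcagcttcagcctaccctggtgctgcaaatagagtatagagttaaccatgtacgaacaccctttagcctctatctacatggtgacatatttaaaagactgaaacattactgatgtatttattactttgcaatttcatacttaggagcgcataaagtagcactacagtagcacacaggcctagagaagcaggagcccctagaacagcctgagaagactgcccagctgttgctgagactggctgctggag
Scn9a, chr2:66634963-66635212, minus strand: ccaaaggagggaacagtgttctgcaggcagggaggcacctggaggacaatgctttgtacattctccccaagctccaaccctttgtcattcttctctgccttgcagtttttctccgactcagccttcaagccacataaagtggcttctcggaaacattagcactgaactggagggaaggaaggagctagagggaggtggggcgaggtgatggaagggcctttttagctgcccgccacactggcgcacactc

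The *Cacna2d1* window had a GC content of 82.4%, with 6 GC boxes and 1 TGACG core, and the *Cacna1i* window 62.4% with 1 TGACG core. The *Nalcn* and *Scn9a* windows had 45.2% and 54.4% and neither motif. The median over the first listed promoter of 27025 genes was 52%, and over the 32 members in the table it was 59.8%. A GC box was present in 14 of 32 members (43.75%) and 32.94% of all promoters, and a TGACG core in 5 (15.62%) and 17.86%. The full element (TGACGTCA), an E-box (CACGTG) and a forkhead site (GTAAACA) were in none of the members' windows and in 1.62%, 6.05% and 3.09% of all promoters, and an AP-1 site (TGANTCA) was in 1 member and 6.87%. These matches describe letters in 250 bases and no binding was measured.

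Between neuron types in fed mice, 7 of 37 members differed, with 4 favoring AGRP neurons and 3 favoring POMC neurons. This was 18.9% of the members and 7.68% of all genes (3.36% higher and 4.32% lower in AGRP neurons). Of the members, 28 averaged over 20 CPM in a group. In AGRP FD against fed such genes were called more often than all genes (17.6% against 10.5%). For the present comparison no share among such genes was computed. *Scn3a*, *Scn3b*, *Cacna1d* and *Cacnb4* were higher in AGRP neurons, and *Scn7a*, *Scn1a* and *Cacna2d1* in POMC neurons. The median log2 difference (AGRP over POMC) was -0.07 over the members and -0.01 over all genes. None of the 7 *Cacng* genes tested differed at this threshold.

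Sodium channel genes made up 4 of the 7. *Scn7a* had 6.94, 11.9, 15.8, 17.7 and 19.8 normalized CPM in AGRP fed and 59.3, 87.5, 99.6, 114 and 157 in POMC fed libraries, a difference of -2.84 ± 0.28 (q = 3.8e-09). *Scn3a* had 329, 340.2, 347, 372 and 435 in AGRP fed and 98.4, 99.9, 149.5, 199 and 225 in POMC fed libraries, a difference of 1.24 ± 0.19 (q = 1.7e-05). Both genes lie on chromosome 2, and they differed in opposite directions without overlap. *Scn1a*, the pore gene of many inhibitory neurons, had 50.1 to 108 in AGRP fed and 117 to 151 in POMC fed libraries (-0.85 ± 0.21, q = 0.0074). The beta gene *Scn3b* had 151 to 258 and 66.8 to 145 (0.90 ± 0.20, q = 0.0030). None of these 4 pairs of ranges overlapped. Shares were taken of the TPM summed over the 8 sodium pore members, which leaves out *Scn2a1*. *Scn3a* had 32.1 ± 2.82% in AGRP fed and 14.1 ± 3.03% in POMC fed libraries, *Scn7a* 1.69 ± 0.61% and 12.7 ± 3.25%, and *Scn9a* 53.2 ± 4.70% and 52.6 ± 2.97%.

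The other 3 were calcium channel genes. *Cacna2d1* was 4.63-fold lower in AGRP than in POMC neurons of fed mice (-2.21 ± 0.16, q = 6.6e-12), and no AGRP library reached the lowest POMC library. *Cacnb4* was higher in AGRP neurons (1.13 ± 0.18, q = 4.0e-05), also without overlap. *Cacna1d*, an L-type pore that opens at relatively negative voltage, had 117, 133, 146, 146 and 152 normalized CPM in AGRP fed and 33.9, 35.7, 41.1, 57.9 and 118 in POMC fed libraries, where 1 POMC library was above the lowest AGRP library. The difference was 1.28 ± 0.26 (q = 0.0011). Ranges were apart for 3 members higher and 4 lower in AGRP neurons, *Cacnb1* (not called) among the latter, against 4.38% and 4.55% of all genes. Among 4 neuronal markers in fed mice, *Syt1* was higher in AGRP neurons (0.99 ± 0.26) and *Snap25*, *Rbfox3* and *Tubb3* lower (-0.94 ± 0.14, -1.43 ± 0.27 and -1.21 ± 0.20). Of 2 tested genes listed for other arcuate neurons, 1 was called higher in AGRP fed neurons and 1 was not called. *Sst* of this list averaged 238 ± 127 normalized CPM in AGRP fed and 14.7 ± 18.2 in POMC fed libraries. The part of these genes in the fed differences was not tested. All 7 differences kept their call without any single library, and their direction in mice of 51 to 56 days alone (3 AGRP, 5 POMC). The libraries of these mice are part of those that gave the calls.

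**Figure D4:**
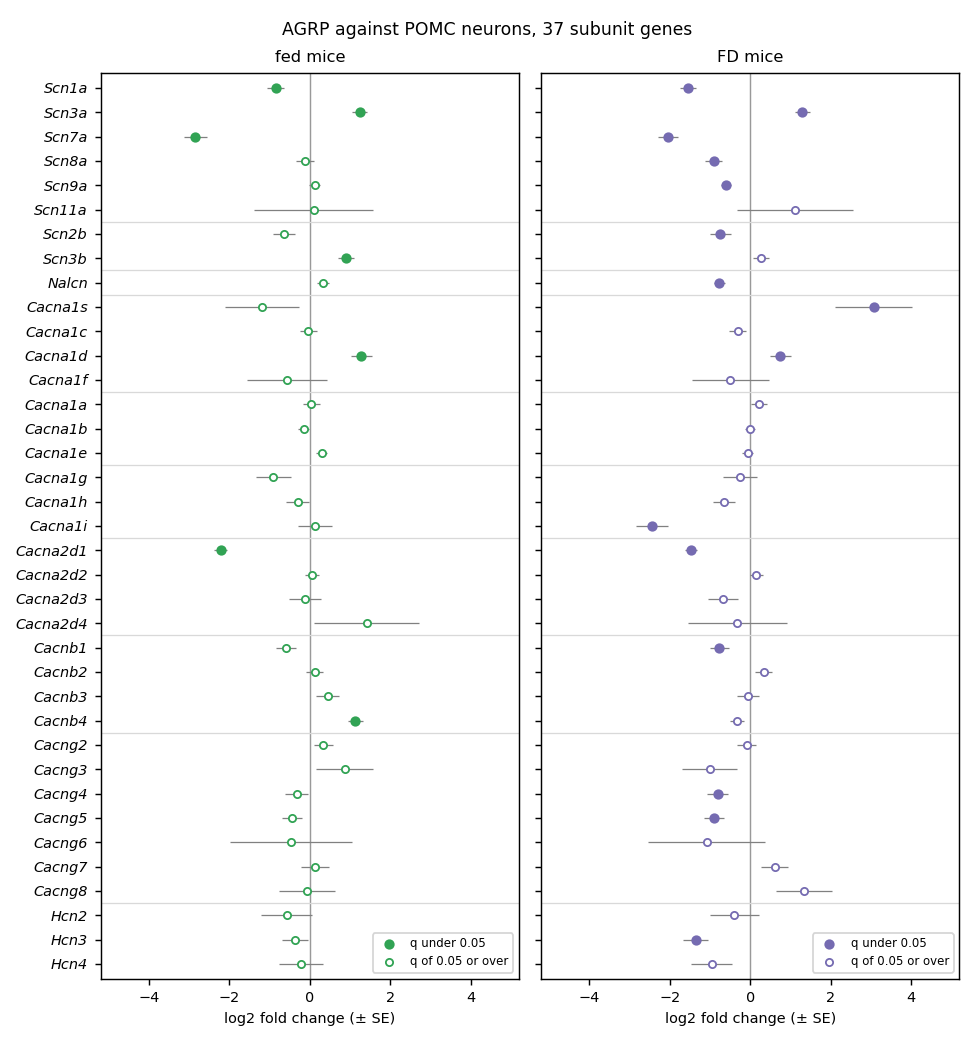
Log2 difference (± SE) of AGRP over POMC neurons for the 37 members tested, in fed mice on the left and FD mice on the right; filled points have q under 0.05. There are 7 filled points in fed mice, 4 of them right of 0, and 15 in FD mice, 12 of them left of 0.

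In FD mice 15 of 37 members differed between neuron types, with 3 favoring AGRP neurons and 12 favoring POMC neurons. This was 40.5% of the members and 18.7% of all genes (9.36% higher and 9.33% lower in AGRP neurons), and the medians were -0.39 and -0.004. The share among genes over 20 CPM, where most members lie, was not computed for this comparison either. The fed and FD comparisons share no library, and each shares libraries with the deprivation comparisons above. *Scn3a* (1.29 ± 0.18), *Cacna1d* (0.75 ± 0.25), *Scn7a* (-2.04 ± 0.25), *Scn1a* (-1.55 ± 0.20) and *Cacna2d1* (-1.48 ± 0.15) were called with the sign they had in fed mice, with q from 4.0e-09 to 0.032. Higher in AGRP FD neurons besides was *Cacna1s* (3.07 ± 0.96, q = 0.021).

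Higher in POMC FD neurons were *Cacna1i* (-2.44 ± 0.41, q = 3.4e-05), *Nalcn* (-0.76 ± 0.14, q = 0.00016), *Scn9a* (-0.59 ± 0.12, q = 0.00057) and *Hcn3* (-1.36 ± 0.31, q = 0.0015). The TARP genes *Cacng5* (-0.90 ± 0.24, q = 0.0074) and *Cacng4* (-0.81 ± 0.26, q = 0.028) and the beta gene *Cacnb1* (-0.76 ± 0.24, q = 0.022) were also higher there. *Scn8a*, the main pore of mature nodes and initial segments, had 27.6, 48.8, 59.4, 61.7, 63.3 and 92.9 normalized CPM in AGRP FD and 96.6, 99.6, 103, 126 and 127 in POMC FD libraries (-0.91 ± 0.21, q = 0.0019). *Scn2b* had 24.8 to 111 and 89.9 to 168 (-0.74 ± 0.26, q = 0.047). Without 1 library, the calls of *Cacna1d* (AGRP FD 1, 3 or 5, POMC FD 3, 4 or 5), *Scn2b* (AGRP FD 1, 4, 5 or 6, POMC FD 2, 4 or 5), *Cacng4* (AGRP FD 2, 3, 4 or 5, POMC FD 2 or 3), *Cacnb1* (AGRP FD 4, POMC FD 2 or 4) and *Cacna1s* (AGRP FD 5, POMC FD 2 or 4) were lost, with q up to 0.14. A term for age cohort, which differs between the AGRP and POMC mice, ended the calls of *Cacna1s* (q = 0.053) and *Cacna1d* (q = 0.064). *Scn2b* also missed the threshold with sorted cells as a covariate (q = 0.052), and *Scn2b*, *Cacnb1* and *Cacng4* with the 2 FD groups alone (q = 0.071, 0.064 and 0.067). The groups were apart for 1 member higher and 7 lower in AGRP neurons, against 5.94% and 5.49% of all genes. All 15 kept their direction in mice of 51 to 56 days, whose libraries are part of those that gave the calls. Under spike-in scaling, *Scn8a*, *Scn9a*, *Scn2b*, *Nalcn*, *Cacnb1*, *Cacng4* and *Cacng5* changed sign. *Sst*, a peptide gene listed here for other arcuate neurons, had at least 88.5 normalized CPM in every AGRP library. It stood at 1404 ± 749 and 1282 ± 706 TPM in the AGRP groups and 80.0 ± 100.4 and 17.8 ± 20.2 TPM in the POMC groups. The difference in FD mice was 6.33 ± 1.25 (q = 0.0013). *Kiss1*, *Ghrh* and *Tac2* of the same list did not pass the count filter. *Th*, the enzyme gene of dopamine neurons (3.73 ± 1.03, q = 0.0088), and the tanycyte marker *Vim* (1.02 ± 0.33, q = 0.027) were also higher in AGRP FD than in POMC FD neurons, and *Vim* was the 1 called among 16 tested markers of other cell types. Among the 4 neuronal markers *Tubb3* was higher (0.60 ± 0.19, q = 0.024) and *Rbfox3* lower (-1.96 ± 0.26, q = 8.7e-07). The part of these genes in the differences was not tested.

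The response to food deprivation differed between AGRP and POMC neurons for 6 of 37 members by the interaction term of the same model. This was 16.2% of the members and 6.98% of all genes (4.23% higher and 2.76% lower), with 2 members higher and 4 lower. Here too, the share among genes over 20 CPM was not computed. *Cacnb4*, *Nalcn*, *Cacna1i* and *Scn9a* moved lower in AGRP relative to POMC neurons, and *Cacna2d1* and *Cacna1s* moved higher. *Scn9a* changed by -0.72 in AGRP and by -0.01 ± 0.13 in POMC neurons, a difference of -0.71 ± 0.18 (q = 0.012). The interaction term was also called for *Vim* (1.89 ± 0.47, q = 0.012), 1 of 16 tested markers of other cell types, which had 30.2 ± 9.65 normalized CPM in AGRP fed, 46.8 ± 16.3 in AGRP FD, 55.4 ± 20.8 in POMC fed and 23.1 ± 9.95 in POMC FD libraries. It was called for 2 of the 4 neuronal markers, *Snap25* (1.05 ± 0.20) and *Tubb3* (1.80 ± 0.28). The part of these genes in the members' differences was not tested.

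**Figure D5:**
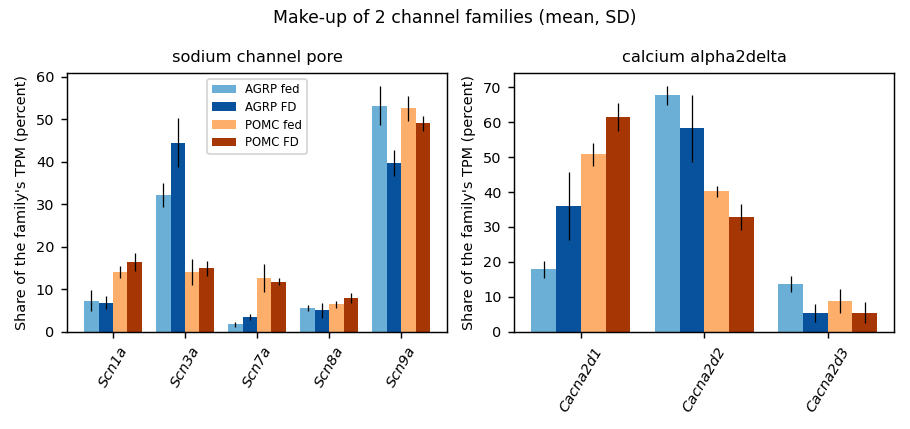
Share of each gene in the TPM summed over its family, for sodium pores (8 members, without *Scn2a1*) and alpha2delta genes. Bars are group means in percent and lines are SD over 5 or 6 libraries, with genes under 1% in every group left out; *Scn3a* and *Cacna2d2* take larger shares in AGRP libraries, and *Scn7a* and *Cacna2d1* in POMC libraries.

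Genes whose products bind or regulate these channels were counted from a list of 28, of which 27 were in the table and 26 were tested. This list was chosen with earlier results of these data known, so its counts beside the shares of all genes are no test. In AGRP neurons 3 rose and 1 fell with food deprivation, beside 10.5% of all genes called and 17.6% of those over 20 CPM. *Pex5l*, which encodes the HCN-binding protein TRIP8b, rose from 13.5 ± 4.20 to 109 ± 29.9 normalized CPM (3.02 ± 0.27, q = 3.0e-09), with every FD library (71.7 or more) above every fed library (19.4 or less). *Gem*, a small GTPase that binds calcium channel beta subunits, rose from 11.4 ± 2.88 to 67.9 ± 21.6 (2.57 ± 0.34, q = 3.8e-06), again without overlap. Of the AMPA receptor genes, whose products TARPs bind, *Gria3* rose (1.76 ± 0.25, q = 9.0e-06) and *Gria1* fell (-0.46 ± 0.15, q = 0.047). In POMC neurons only *Fgf13*, which encodes a sodium channel binding protein, was called, beside 0.460% of all genes, and it rose (1.33 ± 0.25, q = 0.0049). The NALCN complex genes *Unc79*, *Unc80* and *Fam155a* were not called in either neuron type. The median log2 fold change over the 26 genes was -0.04 in AGRP and 0.18 in POMC neurons.

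The same list differed between neuron types for 5 of 26 genes in fed mice and 12 of 26 in FD mice, beside 7.68% and 18.7% of all genes. The counts in this paragraph are description only, because the list was chosen with earlier results known. In fed mice *Gria4* (1.03 ± 0.15) and *Nedd4l* (0.76 ± 0.18), a ubiquitin ligase of sodium channels, were higher in AGRP neurons, and *Fgf12* (-1.11 ± 0.22), *Gria3* (-1.11 ± 0.25) and *Pex5l* (-1.09 ± 0.26) in POMC neurons. In FD mice *Gem*, *Pex5l*, *Stac*, *Rrad*, *Ank3* and *Gria4* were higher in AGRP and *Fgf12*, *Fgf13*, *Fgf14*, *Rimbp2*, *Gria1* and *Gria2* in POMC neurons. *Pex5l* therefore stood lower in AGRP than in POMC neurons of fed mice and higher in FD mice (1.55 ± 0.25). The response differed between neuron types for 8 of 26 genes, beside 6.98% of all genes: *Gem*, *Pex5l*, *Stac* and *Gria3* moved higher in AGRP relative to POMC neurons, and *Fgf13*, *Nedd4l*, *Gria1* and *Gria2* lower. *Stac* averaged 2.50 ± 1.98 normalized CPM in AGRP fed and 3.74 ± 2.18 in AGRP FD libraries. It averaged 0.557 ± 0.835 in POMC fed libraries and was at 0 in every POMC FD library. Its calls in FD mice and for the response rest on these low values.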

How the data were processed

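RNA-Seq counts and TPM of 21 libraries, each from 1 mouse, were used, with groups taken from the sample labels. The authors trimmed reads with cutadapt 1.7.1, removed abundant sequences with Bowtie2 2.1.0, mapped the rest to mm10 with STAR 2.4.0i and counted unique reads per gene, ignoring strand, with HTSeq 0.6.1p1, which gave the deposited counts. The authors made the deposited TPM from counts and summed exon length. The 92 spike-in and 5 summary entries were kept out of library sizes, and reads assigned to no gene were 24.2 to 52.1% of each library's gene, spike-in, ambiguous and unassigned reads.

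Genes with CPM over 1 in at least 3 libraries were kept (16513 genes; 37 of 41 members, without *Scn4a*, *Scn10a*, *Scn4b* and *Cacng1*). A single edgeR 4.0.16 quasi-likelihood model (R 4.3.3) with 4 groups and TMM scaling was fitted to all 21 libraries, with two-sided tests and Benjamini-Hochberg adjustment over all genes. Normalized CPM are TMM-scaled. limma 3.58.1 (voom, the study's test), DESeq2 1.42.0 and the other alternatives are described at the end. Tests were checked on simulated counts with 200 changed genes for AGRP FD against fed among 16513 genes: edgeR called 53 of those changed by 2 on the log2 scale, 16 of those changed by 1 and 4 unchanged genes. Depth was 9822298 to 37663979 counts, and 30 members had at least 10 counts in every library. Starts in the files count from 0 and 1 was added. Each member called in a comparison is given with its fold change there, each with over 5 TPM in a group has a level in the text or in the plot of levels, and called genes of the partner list are named. The other 3 of the 44 genes matched by symbol were tested with all genes and are not reported here. Members and lists were chosen with earlier results of these data known.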

Additional observations from a re-analysis of the deposited data

Results flagged for a closer look

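In 4 of 61 gene and group pairs, 1 library lay far from the others in normalized CPM by Dixon's test, which chance alone flags in about 1 in 20 groups. *Cacna1d* in POMC fed 5 (118, next 57.9), *Cacna1s* in POMC fed 3 (6.88, next 2.18), *Cacng3* in AGRP FD 1 (8.59, next 2.13) and *Cacng4* in AGRP FD 1 (134, next 63.5) were the highest of their groups. Both TARP-family values came from the same library.

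The log2 change with food deprivation in AGRP less that in POMC neurons passed the interaction test for 6 members. The differences were 4.26 for *Cacna1s*, 0.73 for *Cacna2d1*, -0.71 for *Scn9a*, -1.10 for *Nalcn*, -1.47 for *Cacnb4* and -2.57 for *Cacna1i*.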

How the results depend on the processing

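Of 40 results for single members, limma-voom kept 38 calls, DESeq2 and RLE scaling 40 each, no count filter 37, an age block 37, a spike-in set block 39 and a covariate for sorted cells 36. Refitting the 2 compared groups alone kept 28 and lost 6. Replicate numbers do not pair mice: deviations of same-numbered libraries correlated at -0.18 to 0.12 (30 pairs, median -0.02). With a replicate block, a paired fit by replicate number, 33 of 40 were kept and the POMC count was 0. The POMC count was also 0 without a count filter, with sorted cells as a covariate and with the 2 groups alone. By the study's criteria, given above, counts were 5 (AGRP FD against fed), 0 (POMC), 6 (AGRP against POMC, FD mice) and 3 (interaction). With spike-in scaling the counts were 0, 0, 0 and 0, with 1 for AGRP against POMC in FD mice, and the median over all genes moved to -0.93 (AGRP), -1.28 (POMC), 0.82 (fed), 1.17 (FD) and 0.36 (interaction). Relative to these medians 40 of 40 kept their direction. Subtracting the median takes out most of a shift that all genes share, so this result is largely built in and is no support for the calls. Without that subtraction, 8 values changed sign. *Nalcn* was at -0.59 in POMC neurons. Between neuron types in FD mice, *Scn8a* was at 0.59, *Scn9a* 0.54, *Scn2b* 0.56, *Nalcn* 0.52, *Cacnb1* 0.40, *Cacng4* 0.72 and *Cacng5* 0.44. Spike-in scaling follows RNA per pool and not per cell, and the amount added was not balanced between groups. The cause of the sign changes was not tested. Without 1 library the counts were 7 to 10 (AGRP), 0 to 2 (POMC), 7 to 7 (fed), 11 to 16 (FD) and 4 to 7 (interaction). Members over 5 TPM were then 31 to 32, 28 to 30, 31 to 32 and 32 to 32 in AGRP fed, AGRP FD, POMC fed and POMC FD, and at 20 TPM the AGRP FD number was 19. Depth limited *Cacna1s* and *Cacng3* most among the called members, whose lowest libraries held 1 and 8 counts.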
